A study of Mus musculus with 2 samples.

Results

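Enterocytes, the absorptive cells of the small intestine, were examined here as the 230 cells with the highest enterocyte score in the day 5 library of mouse intestinal organoids, which is 21.6% of the 1065 day 5 cells and drawn from 1863 cells in all. The members were chosen by this score, the mean in a cell of the deposited log2 values over 8 genes, namely Apoa4, Ace, Guca2b, Slc15a1, Cyp3a11, Ggt1, Cyp2c29 and Aldh1a1. Because the score was read from the same cells that are described, every level and ratio below is a description and none is a test. Organoids are epithelial cultures grown from intestinal tissue. They came from wild type C57BL/6 mice of 10 weeks. The basal medium, ENR, carries EGF, Noggin and R-spondin, and both libraries received it. Until day 3, Wnt3a-conditioned medium (20%) and Y-27632 (10 µM), which inhibits ROCK, were added too, and until day 1 CHIR99021 (3 µM), which inhibits GSK3B. From day 3 to day 5 they received ENR alone. One library of single cells was made per day with a droplet method that counts transcript 3′ ends by unique molecular identifiers (UMIs). The number of mice or organoids behind a library and the segment of intestine were not given in the sources used here.

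Enterocytes arise from stem cells at the crypt base, stop dividing, and mature as they move along the villus. They carry a brush border of microvilli, whose surface holds enzymes that cut peptides and sugars and transporters that take up the products. They also package dietary fat into lipoproteins, and they hold cytochrome P450 enzymes that modify foreign compounds. Along the villus of the living intestine, antimicrobial Reg genes are known to be used low on the villus, nutrient transporters in the middle, and Apoa4 with purine-handling genes at the tip.

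Every comparison came from 1 library. No replicate existed, no p-value could be given, and the 95% intervals (exact Poisson for a level, exact binomial for a ratio) cover counting error only. A level is the summed UMIs of a group of cells per 1000000 of its UMIs (CPM, counts scaled to that total), and each UMI stands for 1 transcript end, so no scaling by gene length applies. A log2 ratio compares 2 such levels with 0.5 UMI added to each sum. Ratios were counted as higher or lower from 2-fold, among the 9572 genes with at least 50 UMIs over all day 5 cells. The members were compared with the other 835 day 5 cells, and with the 230 cells next in the score, which stand nearest to them.

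The score had no gap at the boundary. The last member scored 2.89 and the first cell outside 2.85, with 17 members and 5 other cells within 0.1 of the boundary. The highest score was 5.45, the median member scored 3.71, the median of the next 230 cells was 2.04, and 138 day 5 cells scored 0. The members are the upper range of this score, and whether they form a class of their own was not tested. In the day 3 library, 0 of 798 cells reached the boundary. Its highest score was 2.49, which 285 day 5 cells exceeded, and its median was 0. UMIs of all 8 genes were present in 74 members, of at least 7 in 171, and of at least 6 in 225. The lowest number in a member was 5. The 8 genes together made up 0.980% of the members' UMIs and 0.0638% of those of the other day 5 cells.

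**Figure D1:**
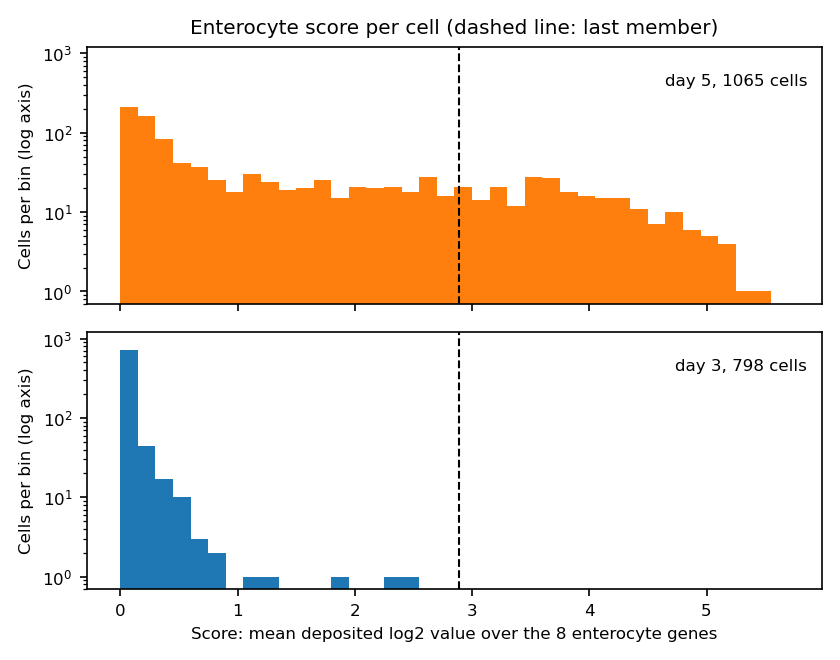
Histograms of the enterocyte score of each cell (horizontal axis, mean deposited log2 value over the 8 genes) in the day 5 library (above, 1065 cells) and the day 3 library (below, 798 cells), with the number of cells per bin on a log axis. The dashed line is the last member at 2.89; day 5 scores run past it to 5.45 without a gap, and no day 3 cell reaches it.

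Depth and RNA make-up moved with the score. The members held a median of 9749.5 UMIs per cell (6777 to 22550), the next 230 cells 12365.5 and the other 835 cells 14906. Mitochondrial genes gave a median of 10.3% of a member's UMIs (6.24% to 26.9%), against 7.38% in the next 230 cells and 5.93% in the other 835, and 135 of the 230 members but 34 of the other 835 cells lay above 10%. Mitochondrial UMIs per cell were 1091 ± 299 (mean ± SD over cells) in the members and 1079 ± 524 in the other cells. Nuclear UMIs were 9286 ± 2759 in the members and 16841 ± 8219 in the others. Of the pooled UMIs, 24.8% of the members', 36.1% of the next 230 cells' and 41.2% of the other cells' came from ribosomal protein genes. Within the 230 members, the score had a Spearman rho of 0.45 with the mitochondrial share, -0.43 with UMIs per cell and -0.65 with the ribosomal protein share. These are descriptions over cells that share a library, and all 4 measures share each cell's depth. The part of depth and of RNA quality in the results below was not tested beyond the alternatives given beside them.

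**Figure D2:**
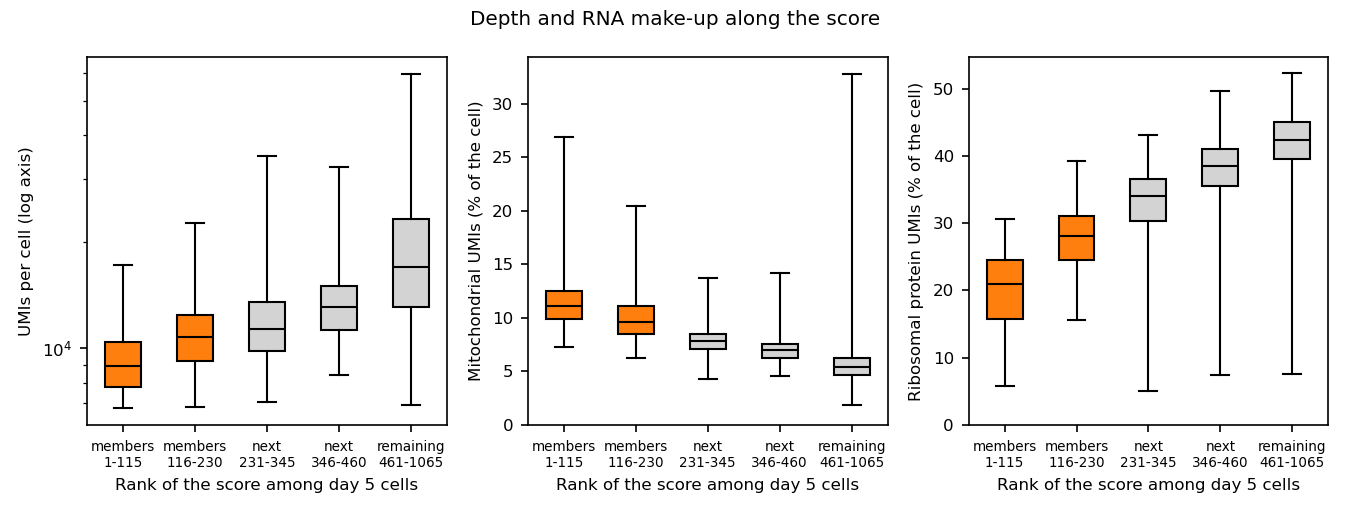
UMIs per cell (log axis), mitochondrial share and ribosomal protein share (both in % of a cell's UMIs) in 5 groups of day 5 cells ordered by score, the members in orange (boxes are quartiles with the median, whiskers the lowest and highest cell). From the remaining cells to the upper members the median mitochondrial share goes from 5.38% to 11.1% and the median ribosomal protein share from 42.4% to 20.9%.

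Against the other 835 day 5 cells, 1211 genes were at least 2-fold higher in the members (12.7% of those tested) and 1985 at least 2-fold lower (20.7%). The median log2 ratio of all tested genes was -0.09. Scaling to UMIs outside mitochondrial and ribosomal protein genes moved that median to -0.37 and the counts to 762 higher and 2679 lower, so that the share of higher genes among those past 2-fold went from 37.9% to 22.1%. Without cells above 10% mitochondrial UMIs, which left 95 members and 801 others, 1108 genes were higher and 1959 lower. With the other cells limited to 485 within the 5th to 95th percentile of the members' depth, 985 were higher and 1499 lower.

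The 8 score genes differed widely in level. Guca2b, which encodes the secreted peptide uroguanylin, stood at 3862 CPM (3784 to 3942) in the members, 969 in the next 230 cells and 252 in the other 835. Its UMIs per member ranged from 3 to 250 with a median of 35.5, and the median other cell held 1. Apoa4, an apolipoprotein of chylomicrons, stood at 2573 CPM (2509 to 2638), 653 and 165 in the same order, with 4 to 135 UMIs per member and a median of 22.5. Cyp3a11, a drug-oxidising P450, reached 1281 CPM, and Aldh1a1, which makes retinoic acid, 1073 CPM. Both exceeded the next 230 cells, at 348 and 357 CPM. The other score genes were rarer. Ace, a brush border peptidase, stood at 363 CPM and the P450 Cyp2c29 at 355. Ggt1, which cleaves glutathione at the cell surface, stood at 157, and Slc15a1, the oligopeptide transporter, at 136. A median member held 3 UMIs of Ace, 2 of Cyp2c29 and 1 each of Ggt1 and Slc15a1, so that single cells could not be ranked by these genes alone. The gene with the largest ratio among the 8 was Ggt1, at a log2 ratio of 5.79 (5.34 to 6.30) over the other cells and 3.80 (3.31 to 4.37) over the next 230.

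UMIs of a gene can also reach droplets of cells that do not use it. Among the other 835 day 5 cells, the 40 richest in secretory cell markers (median 15540.5 UMIs) are of a cell type that should lack Apoa4. A UMI of Apoa4 was present in 100% of the members and 20.0% of those 40 cells. After each cell was thinned to 6700 UMIs the shares were 100% and 10.0%. Ggt1 had a UMI in 67.0% of the members and 0% of those 40 cells (0 of 40 cells, which allows a share of cells with a UMI of up to 7.5%), or 55.2% and 0% after thinning. Guca2b had a UMI in 100% of the members and 77.5% of those 40 cells, or 100% and 60.0% after thinning. Apoa4, Ggt1 and Guca2b belong to the score, and the 40 cells were taken from outside the members. Higher shares in the members therefore follow in part from the choice of the cells. In the day 3 library the 8 genes ranged from 0.0695 CPM (Slc15a1, 2 UMIs) to 14.8 CPM (Guca2b, 427 UMIs). The day, the medium and the library differ together, and cannot be told apart.

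With a floor of 50 CPM in the members, the 15 genes with the highest ratios over the other cells were 7 of the 8 score genes, all but Aldh1a1, and 8 others. Slc5a4b, a member of the sodium-glucose cotransporter family, had the highest ratio, at 60.8 CPM in the members against 0.735 (log2 ratio 6.31, 5.49 to 7.40). Gda, which deaminates guanine, stood at 98.5 against 2.41 CPM (5.34). Gdpd2, a glycerophosphodiester phosphodiesterase, stood at 55.7 against 3.41 CPM (4.02). Reg3b, an antimicrobial lectin, stood at 4191 against 281 CPM (3.90), and its relative Reg3a at 611 against 50.7 CPM (3.59). The rest were lactase (Lct, 3.82), the dipeptidase Dpep1 (3.61) and Nat8, which acetylates cysteine conjugates (3.59). Thus brush border enzymes, a nucleobase enzyme and secreted defence proteins stood beside the genes that defined the score. Slc5a4b, the Cyp2c and Cyp3a genes and the Reg3 genes have close relatives in the genome, between which 3′ reads may have been split or lost. Their single levels are uncertain to that extent.

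The promoters of these genes were read from RefSeq on GRCm38.p6, as the 250 bases before each annotated start. Hepatocyte nuclear factor 4 (HNF4) is a known regulator of enterocyte genes, so its letters CAAAGNNCA were searched on both strands, beside AGATAAG for GATA factors and TTTATGG for CDX factors. None of these motifs is part of another. The HNF4 letters were present in 5.49% of all 32851 promoters, 4.80% of 9685 promoters of tested genes, 7.93% of 1286 promoters of genes at least 2-fold higher in the members and 4.03% of 1884 promoters of genes at least 2-fold lower. The GATA letters were in 2.74% of all promoters, 1.61% of those of tested genes, 2.33% of those of higher genes and 1.96% of those of lower genes. The CDX letters were in 2.43%, 1.55%, 1.56% and 1.96% in the same order. An HNF1 motif was in 0.371%, 0.258%, 0.778% and 0.159%, or 122, 25, 10 and 3 promoters. The 15 genes with the highest ratios have 21 promoters, of which 4 held the HNF4 letters, those of Apoa4, Cyp3a11, Ace and Nat8. Ace and Nat8 have 2 promoters each, and only the second holds the letters. For Ace that is chr11:105974939-105975188, and the first, at chr11:105967698-105967947, has none. The score gene Aldh1a1 had the letters in a promoter too. The sequences of the score genes Apoa4 and Aldh1a1 are shown because they carry these letters (capitals) and lie before the annotated gene. Aldh1a1 has 2 promoters, and only the first, shown here, holds the letters. The second lies at chr19:20601718-20601967. The Apoa4 promoter is cut to the 102 bases that lie before the gene as GENCODE annotates it. The matches began 182 and 234 bases before the respective RefSeq starts. They are Apoa4 chr9:46240594-46240695 (plus strand) and Aldh1a1 chr19:20492333-20492582 (plus strand), each printed 5′ to 3′ along its gene.
Apoa4: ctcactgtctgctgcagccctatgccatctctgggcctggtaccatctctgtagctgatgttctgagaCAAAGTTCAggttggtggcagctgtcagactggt
Aldh1a1: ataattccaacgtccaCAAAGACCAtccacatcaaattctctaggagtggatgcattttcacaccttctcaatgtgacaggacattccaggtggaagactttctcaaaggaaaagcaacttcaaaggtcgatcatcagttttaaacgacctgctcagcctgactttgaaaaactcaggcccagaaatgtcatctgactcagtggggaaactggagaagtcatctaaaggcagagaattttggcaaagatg
A match of letters describes the sequence and is not evidence of binding.

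Genes of lipid absorption stood higher in the members nearly throughout: 18 of 21 tested were at least 2-fold higher than in the other cells and 1 was lower, with a median log2 ratio of 1.95 (1.88 without the score gene Apoa4). Apoa1, the main apolipoprotein of high-density lipoprotein, was the second most abundant nuclear transcript of the members, at 13055 CPM (12910 to 13201) against 5926 in the next 230 cells and 1409 in the other cells. Every member held it, with 33 to 543 UMIs per cell and a median of 124. Fabp1, a cytosolic fatty acid carrier, stood at 10056 CPM in the members, 9540 in the next 230 and 1428 in the remaining 605. Its relative Fabp2 stood at 3784, 1920 and 340 CPM. Mttp and Apob, which build the chylomicron particle, had log2 ratios over the other cells of 2.04 and 2.50, and the fatty acid receptor Cd36 of 3.09. The triglyceride-making enzymes Mogat2 and Dgat2 had ratios of 2.41 and 2.15. The lipid droplet gene Plin2 differed little (52.0 against 44.6 CPM, 0.23). The gene that was lower was Scarb1, a lipoprotein receptor, at 0.838 CPM (2 UMIs) against 5.41 (-2.38, -5.76 to -0.79). Apoa1, Apoc3 and Apoa4 are neighbours on chromosome 9, between chr9:46228580 and chr9:46243459. Their ratios over the next 230 cells were 1.14, 1.33 and 1.98.

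Digestive enzymes and transporters of the brush border were likewise higher. All 11 peptidases tested were at least 2-fold higher, with a median log2 ratio of 2.48. Without the score genes Ace and Ggt1 it was 9 of 9, with a median of 2.15. Anpep, which removes amino acids from peptide ends, stood at 800 CPM in the members against 110 in the other cells, and neprilysin (Mme) at 552 against 74.4. Of 12 genes of sugar digestion and transport, 12 were at least 2-fold higher (median 2.09). Sucrase-isomaltase (Sis) stood at 3455 against 859 CPM, and the sodium-glucose cotransporter Slc5a1 at 993 against 210. The fructose transporter Slc2a5 stood at 119 against 27.3 CPM and the basolateral glucose transporter Slc2a2 at 236 against 43.6. Of 12 transporters of peptides and amino acids, 10 were higher and 1 was lower (median 1.70). Without the score gene among them, 9 of 11 were higher and 1 lower (median 1.58). The neutral amino acid transporter Slc6a19 stood at 157 against 15.8 CPM, and the glutamate transporter Slc1a1, the lower one, at 0.838 (2 UMIs) against 6.75 (-2.70, -6.08 to -1.12). Of 13 genes of microvillus structure, 9 were higher and 0 lower (median 1.78). Villin (Vil1) was at 288 against 145 CPM, and the cadherins Cdhr2 and Cdhr5, which link microvillus tips, had ratios of 2.33 and 1.98. Pdzk1, a scaffold for brush border transporters, had the highest ratio of that list at 28.5 against 0.735 CPM (5.22, 4.35 to 6.34). It rested on 46 members with a UMI.

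Of 21 genes of drug metabolism, 18 were at least 2-fold higher and 0 lower (median 1.72, or 1.56 without the 2 score genes among them). Beside Cyp3a11 and Cyp2c29, Cyp3a25 (203 against 20.6 CPM), Cyp2b10 (888 against 132) and Cyp2j6 (1123 against 206) stood out. The carboxylesterase Ces2a did not, at 1012 against 836 CPM. Of 9 genes of retinoid handling, 6 were higher and 1 lower, with the retinol carrier Rbp2 at 5858 against 1346 CPM. Without the score gene among the 9, 5 of 8 were higher and 1 lower. Fat burning and ketone production were represented by 14 tested genes, with 5 higher and 1 lower (median 0.76). Of all tested genes 12.7% were higher and 20.7% lower. The mitochondrial enzyme genes Hadha and Hadhb had ratios of 0.47 and 0.17. Among 20 nuclear genes of oxidative phosphorylation 1 was higher and 0 lower, with a median of 0.17 that became -0.13 when scaled without mitochondrial and ribosomal protein genes. The 13 mitochondrially encoded genes had a median of 0.72, 1 of them past 2-fold (mt-Co1, 1.13).

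Transcription factors differed much less than the enzymes: of 26 tested, 6 were at least 2-fold higher and 0 lower, with a median of 0.50. Over all tested genes 12.7% were higher and 20.7% lower. Scaled without mitochondrial and ribosomal protein genes, the median of the factors was 0.21. The highest ratios belonged to Creb3l3, a lipid-responsive factor, at 353 CPM in the members against 64.1 (2.46, 2.33 to 2.60), and to Maf, at 239 against 62.4 (1.94, 1.79 to 2.09). Nuclear receptor genes followed, with Rxra at 1.67 and Nr1i3, a xenobiotic sensor, at 1.31, and the coactivator gene Ppargc1a stood at 1.41. Hnf4a was at 149 against 117 CPM (0.34) and Hnf4g at 91.8 against 58.7 (0.65). The caudal factors Cdx1 and Cdx2 stood lower in the members, at log2 ratios of -0.75 and -0.56, and Klf5, used by crypt cells, at -0.91. These 3 did not reach the 2-fold limit.

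Genes known from particular heights of the villus were not alike. Of 7 genes of the villus bottom, 4 were at least 2-fold higher and 0 lower (median 1.89). All 7 of the middle were higher (median 2.12), and without the score gene among them it was 6 of 6 (median 1.97). Of 9 genes of the tip, 3 were higher and 0 lower, with a median of 0.26 that became -0.03 when scaled without mitochondrial and ribosomal protein genes. The 3 were the score gene Apoa4, Creb3l3 and Neat1, and without Apoa4 it was 2 of 8 (median 0.25). Against the next 230 cells the order differed, with medians of 0.31 for the bottom, 0.72 for the middle and 0.70 for the tip. Without score genes those of the middle and the tip were 0.63 and 0.58. The purine genes Nt5e, Ada and Slc28a2 of the tip were close to absent. Nt5e had 0 UMIs in the members, which allows up to 1.26 CPM (3 UMIs), and Ada and Slc28a2 stood at 2.51 CPM each (6 UMIs each). By contrast Slc28a1, a nucleoside transporter, stood at 33.9 CPM in the members, 4.90 in the next 230 cells and 0.336 in the remaining cells. In a list of nucleotide breakdown and salvage, 4 of 6 tested genes were at least 2-fold higher than in the other cells and 0 lower (median 1.36). Of genes used by region, the ileal list was mixed: Fabp6 had 0 UMIs in all day 5 cells, Fgf15 had 0 in the members against 6.75 CPM in the other cells, and Clec2h stood at 1438 CPM against 232. Lactase, used more in the proximal intestine, stood at 76.7 CPM and was found in 87 members.

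**Figure D3:**
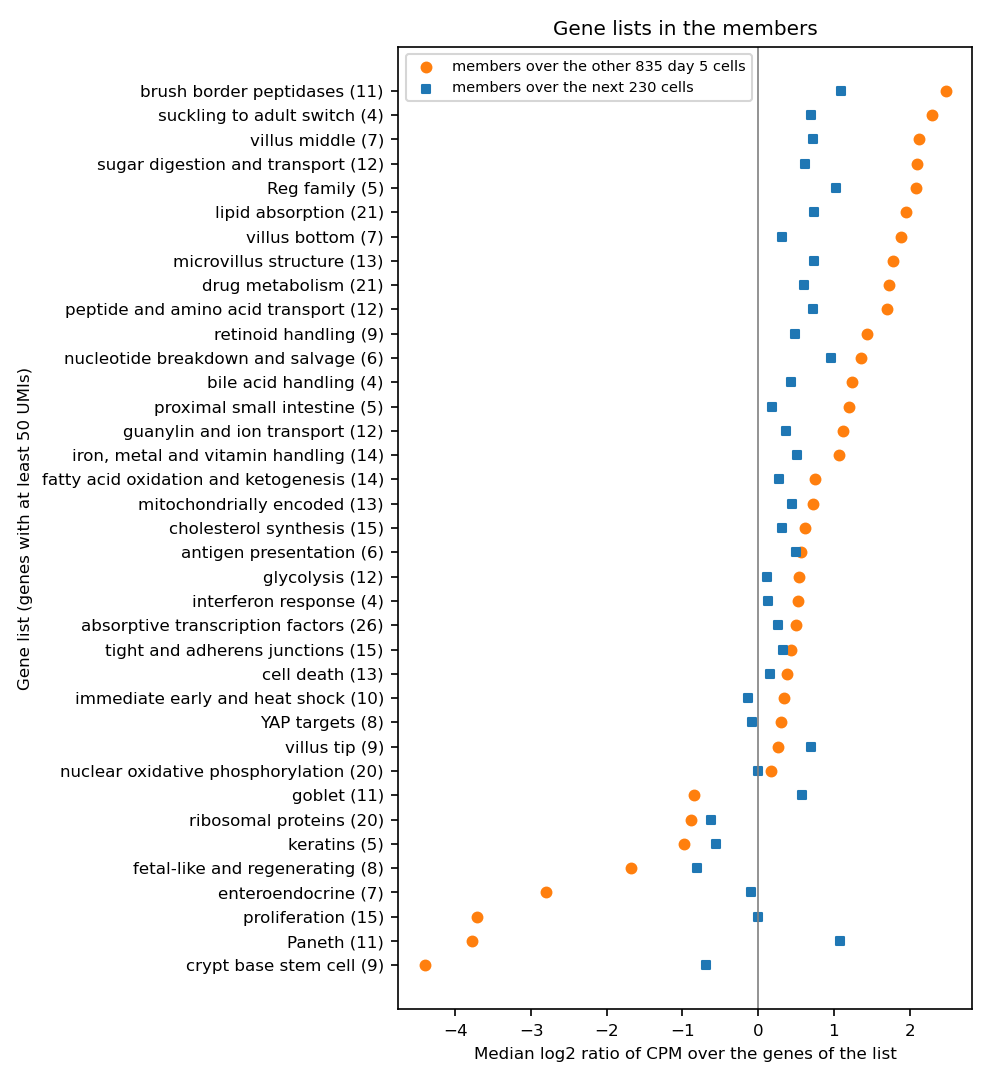
Median log2 ratio of CPM (horizontal axis) over the genes of each list with at least 4 tested genes (number in parentheses), for the members over the other 835 day 5 cells (orange circles) and over the next 230 cells (blue squares). Peptidases, sugar, lipid and transport lists lie at the right against the other cells and closer to 0 against the next 230, and stem cell, Paneth, proliferation and enteroendocrine lists lie far left against the other cells. Against the next 230 these 4 rest on few UMIs, and the Paneth median of 1.08 became -0.20 when the score came from thinned counts. Without cells over 1% secretory marker UMIs, the Paneth and enteroendocrine medians over the other cells were -0.24 and -0.36. Score genes are included in the lists that hold them.

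Against the next 230 cells, 529 genes were at least 2-fold higher in the members (5.53%) and 475 lower (4.96%), and the median over all tested genes was 0.12. Many of these rest on few UMIs. Among the 6293 genes with at least 50 UMIs in the 460 cells compared, 262 were higher (4.16%) and 62 lower (0.985%). With TMM scaling factors (trimmed mean of M values) 364 of the 9572 were higher and 577 lower, and the share of higher genes went from 52.7% to 38.7%. Scaled without mitochondrial and ribosomal protein genes, 303 were higher and 680 lower (30.8%).

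Absorptive genes ranged from those with similar levels in the members and the next 230 cells to those much lower in the next 230. Among the former, chosen after their values were seen, were Khk, the first enzyme of fructose use (1558 CPM in the members, 1417 in the next 230, 396 in the remaining 605) and the cystine transporter Slc7a9 (166, 159 and 39.3). Lypd8, which keeps bacteria off the epithelium, stood at 1484, 1489 and 699 CPM, and the calcium carrier S100g at 876, 906 and 341. Reg1, the most abundant nuclear transcript of the members, stood at 16077 CPM (15916 to 16238), 13122 and 1426. Of the sugar genes 1 of 12 was at least 2-fold higher than in the next 230 cells, and that was lactase (1.70). Of the peptidases 7 of 11 were (median 1.10), of the lipid genes 6 of 21 and of the genes of drug metabolism 7 of 21. These 3 lists hold score genes, and without them the counts were 5 of 9 (median 1.03), 5 of 20 (0.72) and 5 of 19 (0.51). The largest differences from the next 230 cells among genes of the naming rule were those of Ggt1 (3.80), Gda (3.51, 2.95 to 4.18), Cyp2c29 (3.22, 2.95 to 3.52), Slc15a1 (2.41) and Ctrb1, a chymotrypsinogen (2.25, 1.81 to 2.74). Flvcr1, a heme exporter, followed at 70.4 against 16.0 CPM (2.13), then Guca2b (2.0) and Reg3b (1.99). Score genes among these are high by choice of the cells.

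**Figure D4:**
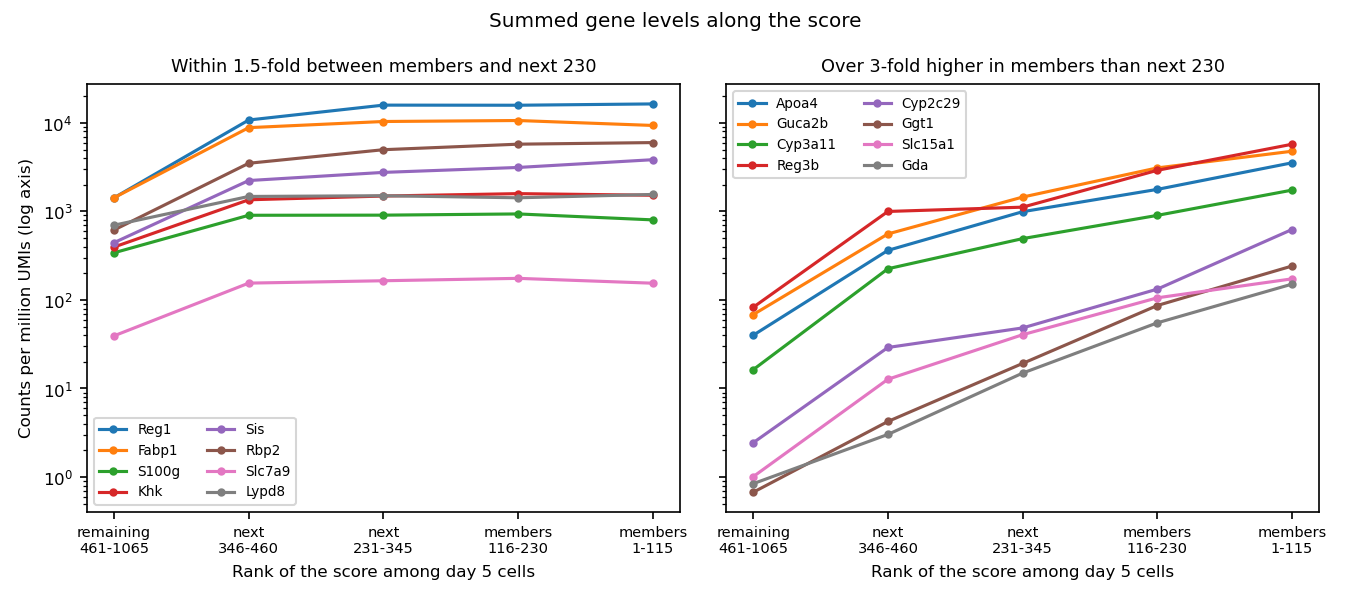
Summed CPM (log axis) of 16 genes in 5 groups of day 5 cells ordered by score, from the remaining cells (left) to the upper members (right), the genes chosen after their values were seen. Those at the left differ less than 1.5-fold between members and the next 230 cells (Reg1 16077 against 13122 CPM), those at the right more than 3-fold (Ggt1 157 against 11.1 CPM). All genes at the right but Reg3b and Gda are score genes. The groups are ordered by that score, so the score genes rise along it by choice of the cells.

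The genes lowest against the next 230 cells were Ccnd2, a cyclin of the cell cycle's first phase (34.8 against 146 CPM, -2.07), the LIM protein Csrp2 (50.3 against 141, -1.49), Ifitm2 (-1.27), the mucosal lectin-binding protein Dmbt1 (-1.25), Krt7 (-1.13), Ola1 (-1.12), Txnip (-1.12) and Pdlim1 (-1.04). Several keratins stood lower in the members than in the other cells: Krt18 at 236 against 751 CPM, Krt8 at 839 against 1656 and Krt7 at 29.3 against 78.7. Krt20, a keratin of differentiated cells, stood higher at 237 against 25.1 CPM (3.24, 3.05 to 3.43). Of 20 ribosomal protein genes 0 were higher and 6 lower than in the other cells, with a median of -0.89. Of all tested genes 12.7% were higher and 20.7% lower. The smallest and largest differences were those of Rps14 (-0.26) and Rpl3 (-1.54).

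Among the members, the upper-scoring cells were compared with an equal number of lower-scoring cells. At least 2-fold higher in the upper cells were 640 genes (6.69%) and lower 632 (6.6%), but only 52 (1.24%) and 16 (0.383%) of the 4177 genes with 50 UMIs in the 230 members. With TMM factors 443 of the 9572 were higher and 808 lower, a share of higher genes of 35.4% in place of 50.3%. Cyp2c29 stood at 625 CPM in the upper and 132 in the lower cells (2.23, 1.99 to 2.49), Slc5a4b at 105 against 23.7 (2.14), Ggt1 at 242 against 86.5 (1.48), Gda at 151 against 55.1 (1.45) and the desaturase Scd1 at 104 against 38.3 (1.43). Cyp2c29 and Ggt1 belong to the score that split the members, so they are high in the upper cells by choice of the cells. Fabp1 stood at 9354 in the upper and 10638 CPM in the lower cells (-0.19) and Reg1 at 16380 and 15826 (0.05). The lowest ratios, apart from the goblet gene Agr2 described below, were those of Ppp1r1b (-1.31), the biliverdin reductase Blvrb (-1.14), Csrp2 (-1.11) and Ahcy (-0.91). The upper cells had a pooled mitochondrial share of 11.4% against 9.78%, and a ribosomal protein share of 20.5% against 28.3%. Between the 135 members above and the 95 at or below 10% mitochondrial UMIs, the log2 ratio was 1.08 for Cyp2c29, 0.62 for Ggt1, 0.59 for Apoa4, 0.30 for Guca2b, -0.06 for Reg1 and -0.19 for Fabp1. Cyp2c29, Ggt1, Apoa4 and Guca2b are score genes, and the median score was 3.94 in those 135 members and 3.52 in the 95. The part of the mitochondrial share in these differences was not tested.

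The Reg genes, small secreted lectins of the C-type family that act on bacteria or promote growth, differed widely from member to member. Reg1, Reg3a, Reg3b and Reg3g lie together on chromosome 6 between chr6:78370657 and chr6:78468872, and all 4 were at least 2-fold higher in the members than in the other cells, at log2 ratios of 2.07, 3.59, 3.90 and 2.09. Reg4, used by secretory cells, was lower (-2.78). Reg3b ranged from 0 to 640 UMIs per member: 24 members held none, the quartiles were 2, 14 and 56, and the 10 richest members held 30.8% of its UMIs. Reg1 ranged from 0 to 656 with quartiles of 86.25, 154.5 and 237.5, and 225 members held it. Reg3g had a median of 31 UMIs (0 to 251) and Reg3a of 4 (0 to 52). With cells thinned to 6700 UMIs the variance of Reg3b over its mean was 107, the highest of any gene with a thinned mean of at least 0.2, and that of Reg1 was 41.2. A value of 1 is what counting alone gives. Sis had 3.08 at a thinned mean of 23.7 UMIs, and Reg3b had a mean of 29.7. The Reg genes did not vary as a block. Over the 230 members, the Spearman rho of thinned counts was -0.28 for Reg1 with Reg3b and 0.20 for Reg3b with Reg3g, 0.02 for Reg3a with Reg3b, and the score had a rho of 0.31 with Reg3a, 0.20 with Reg3b, 0.08 with Reg3g and -0.04 with Reg1. These describe cells of 1 library and cannot separate organoids.

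**Figure D5:**
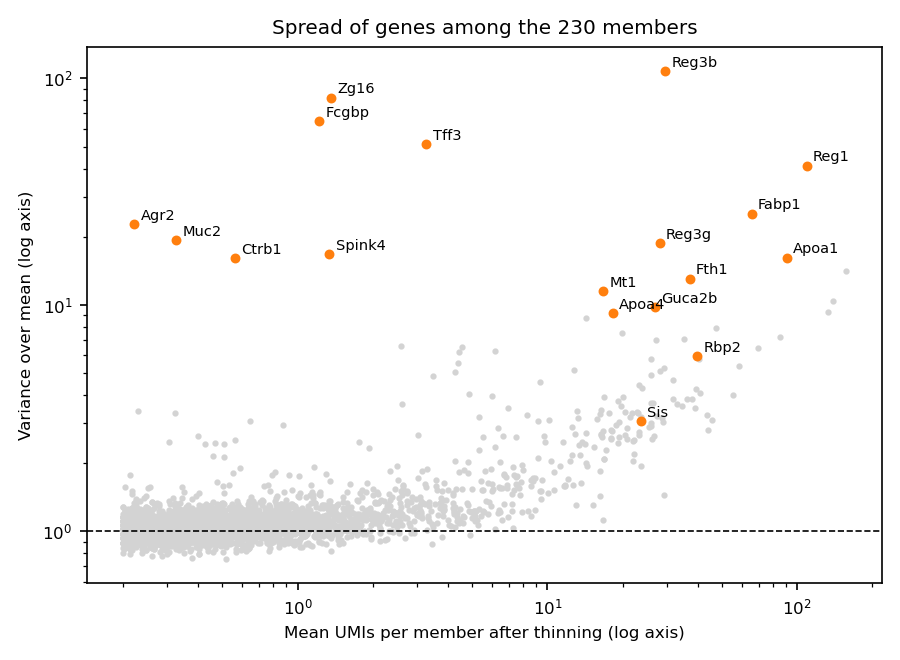
Variance over mean of UMIs among the 230 members after thinning each to 6700 UMIs (vertical log axis) against the mean (horizontal log axis), for genes with a mean of at least 0.2, named genes in orange. The dashed line at 1 is counting error alone; Reg3b lies highest at 107, and the goblet genes Zg16, Fcgbp, Muc2 and Agr2 lie high at low means.

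A second kind of uneven gene came from a few cells. Zg16, Fcgbp, Muc2 and Agr2, secreted or chaperone products of goblet cells, had variances over their means of 82.3, 64.7, 19.3 and 22.8. In 4 members, over 1% of the UMIs came from markers of secretory cells (2.36% to 5.97%). These 4 held 94.6% of the members' Muc2, 91.4% of Fcgbp, 94.6% of Zg16 and 93.3% of Agr2, while they held 1.95% of Apoa4. Without them Muc2 stood at 3.87 CPM in place of 70.4 and Zg16 at 18.5 in place of 334. The 4 cells held between 9277 and 21882 UMIs. A doublet caller (Scrublet) marked 8 of the 1065 day 5 cells and 0 members, so doublets cannot be taken as removed. The high ratio of Muc2 (2.24) and Fcgbp (1.98) and the low ratio of Agr2 (-1.92) between upper and lower members came with UMIs held by few cells: a single cell held 39.3%, 32.9% and 76.5% of the respective UMIs. Ctrb1 was also uneven, found in 24 members with 78.5% of its UMIs in 10 of them.

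Stem cell, proliferation, Paneth and enteroendocrine markers had lower summed levels in the members than in the other cells. Of 9 stem cell genes tested 9 were at least 2-fold lower than in the other cells (median -4.41, or -3.66 with genes at 0 UMIs set to 3 UMIs), and the median member held none of the 11 listed. Lgr5 had 1 UMI in the members, and Ascl2 and Axin2 had 0. Of 15 proliferation genes 14 were lower (median -3.71), with Mki67 at 4.19 against 57.2 CPM and Ube2c at 6.70 against 171. Summed over the list, proliferation genes were at 150 CPM in the members and 142 in the next 230 cells, against 1832 in the remaining 605. Among the 15 lowest genes were the histone gene Hist1h2ap (-5.41), Pclaf, a partner of the replication clamp (-5.06), and Stmn1 (-4.35). The hormone gene Cck (-5.31) was among them too, as were Clca3b (-5.01) and 3 defensins of Paneth cells. Of 11 Paneth genes 10 were lower (median -3.79). Defa24 still had a UMI in 62.6% of the members at 90.1 CPM, near the 64.3% and 82.0 CPM of the next 230 cells, while 40 secretory-rich cells held 44883 CPM. After thinning the shares were 48.3% and 41.7%. Summed over the Paneth list the median member was at 188 CPM and the median other cell at 140. The gene that went the other way was Pnliprp2, a lipase, at 78.4 against 19.3 CPM. Of 11 goblet genes 1, Guca2a, was higher and 5 were lower (median -0.85), beside 12.7% and 20.7% of all tested genes. Summed over the goblet list the median member was at 847 CPM and the median other cell at 301. Guca2a encodes guanylin, which enterocytes also make. Without all cells above 1% secretory marker UMIs (4 members and 43 others) the medians of the Paneth and goblet lists were -0.24 and 0.58, so the goblet list changed sign. The enteroendocrine median was -2.81 with these cells and -0.36 without them. The median member and the median other cell each held 0 CPM summed over the enteroendocrine list. Tuft markers were at 6.70 CPM in the members (16 UMIs, 6 of the 7 genes at 0) and 3.74 in the other cells. Of the immune markers 3 were in the data, all at 0 UMIs in the members. Stromal and endothelial markers had only 2 of 8 genes in the data, with 1 UMI in the members and 10 in the other cells.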

How the data were processed

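Single cells of 2 droplet libraries, 1 at day 3 (798 cells) and 1 at day 5 (1065 cells), were used. The authors deposited UMI counts per gene and cell, made with Cell Ranger 1.3.0 on mm10 per the submitters' processing notes, and log2 values of the same cells. From the values, each deposited log2 value equals the log2 of 1 plus the count over the size factor of its cell. The sources used here do not give the filters behind the 15745 genes. Of these genes 15681 matched a symbol.

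The score used the deposited log2 values and every other value used the counts. Counts were summed per group of cells, scaled to CPM, and given with 95% exact intervals. Cells of 1 library are not replicates, so no test was run. The summing and ratio steps were tested on simulated data. Column names give cell numbers and no barcodes, so barcodes shared between libraries could not be counted. Python 3.11.15, scipy 1.17.1 and scanpy 1.11.5 were used, with TMM factors from edgeR as an alternative scaling.

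The members and gene lists were chosen with earlier results of these data known. Named genes were the 8 score genes, the extremes of each comparison (15, 8 and 8 at each end, with at least 50 CPM in the higher group, at least 10 UMIs in the lower group, the same direction in the mean log2 values, and no mitochondrial, ribosomal or predicted gene), the members of the lists that carry a role, and the 15 genes most variable among members. GENCODE M21 (GRCm38, which is mm10) gave the gene positions.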

Additional observations from a re-analysis of the deposited data

How the results depend on the processing

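Every value is from 1 library per day, so leaving out a replicate was not possible. No paired analysis was possible because each day has 1 library and the groups compared are cells of the same library. Counts of genes past 2-fold depended most on the minimum of UMIs. With no minimum they were 2807 higher and 3013 lower in the members than in the other cells, 1479 and 1374 against the next 230 cells, and 1501 and 1318 between upper and lower members. With at least 50 UMIs over the cells compared they were 262 and 62 against the next 230 cells, and 52 and 16 between upper and lower members (an alternative chosen after seeing the data). Scaling without mitochondrial and ribosomal protein genes, also chosen after seeing the data, gave 762 higher than in the other cells and 303 higher than in the next 230. With 1.5 times as many members, 751 genes were lower than in the next 230 cells, and with each cell thinned to 6700 UMIs, 834 were higher. Without cells over 10% mitochondrial UMIs, 1356 genes were higher in the upper members and the median mitochondrial share was 8.87%. The cause of these moves was not tested. The remaining alternatives kept these counts within 1.5 times. Between 217 and 225 of the 230 members were shared when the score came from thinned counts or without 1 of its genes. Of the list medians 1561 stayed within their counting intervals, 194 moved, and 3 of at least 1 in size turned sign: tuft over the other cells to -0.81 with no minimum of UMIs, and Paneth over the next 230 cells to -3.68 with that larger group and -0.20 with the score from thinned counts. Counting smaller medians too, 8 turned sign over the other cells and 45 over the next 230. Over the other cells these were also goblet (0.58 without secretory-rich cells), transmembrane mucins (-0.26 with no minimum), villus tip (-0.03), nuclear oxidative phosphorylation (-0.13) and ileum (-0.12), the last 3 when scaled without mitochondrial and ribosomal protein genes, and ileum under 2 other settings. Of the ratios of named genes 1826 stayed within their intervals, 775 moved, and 5 of at least 1 in size turned sign, all against the next 230 cells and all at few UMIs. Reg4 went to -0.0082 in the mean of the deposited log2 values, -3.82 with that larger group, -0.96 with the score from thinned counts and -0.55 without cells over 1% secretory marker UMIs. Clca3b went to 0.51 with other cells limited by depth. The depth limits genes under about 50 UMIs.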
